A study of Mus musculus with 8 samples.

Results

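Sult2a1, Sult2a2, Sult2a5 and Sult2a6 are 4 of the 8 Sult2a genes and 4 of the 22059 gene symbols that were counted in developing mouse liver. They were selected on the values described below, namely a high level at postnatal day (P)14 and a low level at every other stage, so their levels across the stages are given as a description, with no test. The SULT2A enzymes are cytosolic sulfotransferases of hepatocytes that move a sulfate group from the activated donor PAPS onto hydroxysteroids such as dehydroepiandrosterone and onto bile acids. The sulfated products are more soluble in water, are substrates of organic anion transporters and leave the cell more readily. In rodent liver, transcription of Sult2a genes is known to respond to the nuclear receptors PXR, CAR and FXR, and in adult mice the enzymes are known for higher levels in females than in males.

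Poly(A)-selected RNA of whole liver from wild-type FVB mice (FVB/NJ in the Methods) was sequenced as 100 bp paired ends at embryonic day (E)18, P14, P28 and 3 months of age (adult), with 2 libraries a stage. The labels separate the stages by age: no mouse was described as carrying a transgene or a deletion or as treated, the labels give neither the sex of the animals nor a batch (sex-linked RNA, given below, differed between libraries), and nothing states whether a library came from 1 animal or from several. The Methods name males for FVB/NJ liver taken at 3 months and state no sex for the E18, P14 and P28 mice. Between 68154675 and 106055723 reads per library were counted on genes. RPKM below is reads divided by transcript length in kilobases and by 1000000 mapped reads, and is the scale on which levels of different genes are compared.

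The members lie in the Sult2a cluster of chromosome 7. In GRCm38 coordinates of the GENCODE annotation (the reads were counted on mm9, whose coordinates differ), the order along the chromosome was Sult2a5 (chr7:13623967-13670807, plus strand), Sult2a2 (chr7:13733505-13779636, plus strand), Sult2a1 (chr7:13796246-13837409, minus strand), Sult2a4, Sult2a3, Sult2a6 (chr7:14222403-14254870, minus strand), Sult2a8 and Sult2a7, over 870 kb in all. RefSeq promoter windows, from 250 bases before to 50 bases after the start on GRCm38.p6, were held for 2 of the 4 members, Sult2a5 and Sult2a6, and for Sult2a3, Sult2a4 and Sult2a8. The Sult2a5 and Sult2a6 windows were 80.9% identical over 256 aligned bases, and those of Sult2a3 and Sult2a4 were 81.4 to 92.2% identical to either. The stretch shown for each gene holds, in capitals, the letters TCATGAAC or the letters aligned with them, which belong to an inverted repeat known from rodent Sult2a promoters as an element bound by nuclear receptors. The stretches run 5′ to 3′ on the strand of the gene, at chr7:13623792-13623821 (plus), chr7:14255060-14255089 (minus), chr7:14123217-14123246 (minus) and chr7:13989813-13989838 (minus), where the window of Sult2a4 begins.
Sult2a5: ctgatttggggTCATGAACttggtctcaca
Sult2a6: ctggtttgtggTCATGAACtcgggctcaca
Sult2a3: ccagtttggggTAATGAACttggtctcaca
Sult2a4: tttcgagTCATGAACttggtctcaca
The capitals began 164 bases before the start in Sult2a5, 208 in Sult2a6, 187 in Sult2a3 and 243 in Sult2a4. TCATGAAC, searched on both strands, was found in Sult2a5, Sult2a6 and Sult2a4 and in 0.6% of all 32851 promoter windows of the same length (197 of them). Sult2a3 differed from it at 1 base, and Sult2a8 had no stretch that aligned. Of the other letters searched on both strands, GTTAAT, which is part of the sequence bound by HNF1 factors, was in the windows of Sult2a5, Sult2a6, Sult2a3 and Sult2a4 and in 7.1% of all windows. AGTTCA, a nuclear receptor recognition hexamer that overlaps the capitals on the opposite strand, was in those 4 and in Sult2a8 and in 14.0% of all. AGGTCA, another such hexamer, was in Sult2a8 alone of the 5 and in 16.3% of all. These searches were chosen after the sequences had been seen, and a match is a description of letters and not of binding.

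Sult2a6 was the most abundant member. It had 8594 and 8337 reads in the P14 libraries, against 15 and 14 at E18, 5 and 5 at P28, and 3 and 5 in adult. On the RPKM scale these were 78.7 and 77.6 at P14, 0.165 and 0.171 at E18, 0.0504 and 0.0575 at P28, and 0.0419 and 0.0631 in adult. Both P14 libraries lay far above the other 6, both E18 libraries lay above the P28 and adult libraries, and the P28 and adult values overlapped. By RPKM, Sult2a6 ranked 653 and 648 among all genes of the P14 libraries, where rank 1 is the highest level, and between 14951 and 15539 in the other 6.

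Sult2a1, which encodes a hydroxysteroid sulfotransferase, came next. Its reads were 3651 and 3487 at P14, 1 and 4 at E18, 3 and 2 at P28, and 0 in both adult libraries. Its P14 level was 31.7 and 30.8 RPKM, and the levels at E18 (0.0105 and 0.0463 RPKM) and P28 (0.0287 and 0.0218 RPKM) overlapped each other. In adult, 0 reads allow up to 3 reads, or 0.0398 and 0.0359 RPKM in the 2 libraries, so that its adult level could not be told from its P28 level at this depth.

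Sult2a5 had 1497 and 1366 reads at P14, 2 and 3 at E18, 0 and 1 at P28, and 0 in both adult libraries. Its P14 level was 12.7 and 11.8 RPKM, and its highest level outside P14 was 0.0339 RPKM, in E18 replicate 2. Sult2a2 was the least abundant member, with 101 and 98 reads at P14, 2 and 3 at E18, 0 and 1 at P28, and 0 in both adult libraries, which is 1.21 and 1.19 RPKM at P14 and at most 0.0479 RPKM elsewhere. For both genes the E18, P28 and adult libraries differed from each other by a few reads only.

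**Figure D1:**
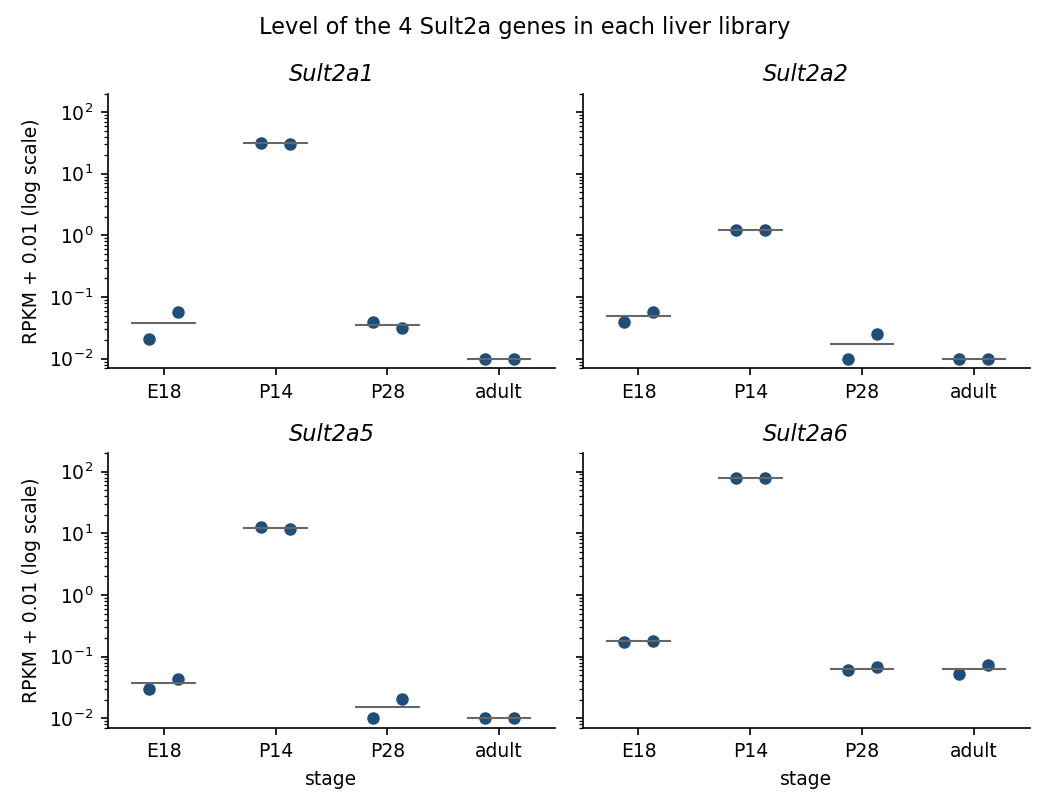
RPKM of the 4 members in each of the 8 libraries, with 0.01 added so that a value of 0 can be drawn on the log axis. Points are libraries (replicate 1 on the left) and lines are means of 2; both P14 points of every member, from 1.19 RPKM for Sult2a2 to 78.7 RPKM for Sult2a6, lie above all 6 others, and those at the lower edge are libraries with 0 reads.

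As mean±s.d. of the 2 P14 libraries, the level was 78.1±0.767 RPKM for Sult2a6, 31.3±0.652 for Sult2a1, 12.2±0.65 for Sult2a5 and 1.2±0.0116 for Sult2a2. Each step in this order was larger than the spread between the duplicates. The order was Sult2a6, Sult2a1, Sult2a5, Sult2a2 in both libraries, and the members' shares of their summed RPKM were close: 63.3 and 63.9% for Sult2a6, 25.5 and 25.4% for Sult2a1, 10.2 and 9.7% for Sult2a5, and 0.973 and 0.983% for Sult2a2. Outside P14 the counts were too low to order Sult2a1, Sult2a2 and Sult2a5, and Sult2a6 had the most reads in each of the 6 libraries. It made up 73.5 and 57.1% of the members' RPKM at E18.

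The P14 duplicates agreed within sampling noise for every member. After scaling to library composition (TMM), the ratio of replicate 1 to replicate 2 was 1.02 for Sult2a1 (95% exact interval 0.972 to 1.07), 1.0 for Sult2a2 (0.751 to 1.34), 1.07 for Sult2a5 (0.99 to 1.15) and 1.0 for Sult2a6 (0.972 to 1.03). These intervals, like those of the folds, cover counting error only. Over the 8 libraries, the Pearson correlation of log2(RPKM + 0.1) between members was 0.9952 to 0.9992, a description that rests on the contrast of the 2 P14 libraries with the rest, for which the members were chosen.

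The ratios of the P14 level to E18 and to P28 were smallest for Sult2a2. Folds are ratios of TMM-scaled reads pooled over the 2 libraries of a stage, and the 3 comparisons share the P14 libraries. For Sult2a6 the P14 level was 843 times that at E18 (587 to 1260), 1420 times that at P28 (771 to 2960) and 1460 times that in adult (740 to 3380). For Sult2a1 it was 2060 times the E18 level (883 to 6350) and 1200 times the P28 level (512 to 3680), and at least 1640-fold higher than in adult, where the bound takes 3 reads over both adult libraries. Sult2a5 was 827 times higher than at E18 (354 to 2550) and 2400 times higher than at P28 (430 to 94800), the latter against 1 read, and at least 657-fold higher than in adult. Sult2a2 had smaller ratios, 57.5 over E18 (24.2 to 179) and 167 over P28 (29.6 to 6620), also against 1 read, and was at least 45.7-fold higher than in adult. The intervals of Sult2a2 and of the other 3 members over E18 did not meet, whereas over P28 its interval overlapped all of theirs.

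**Figure D2:**
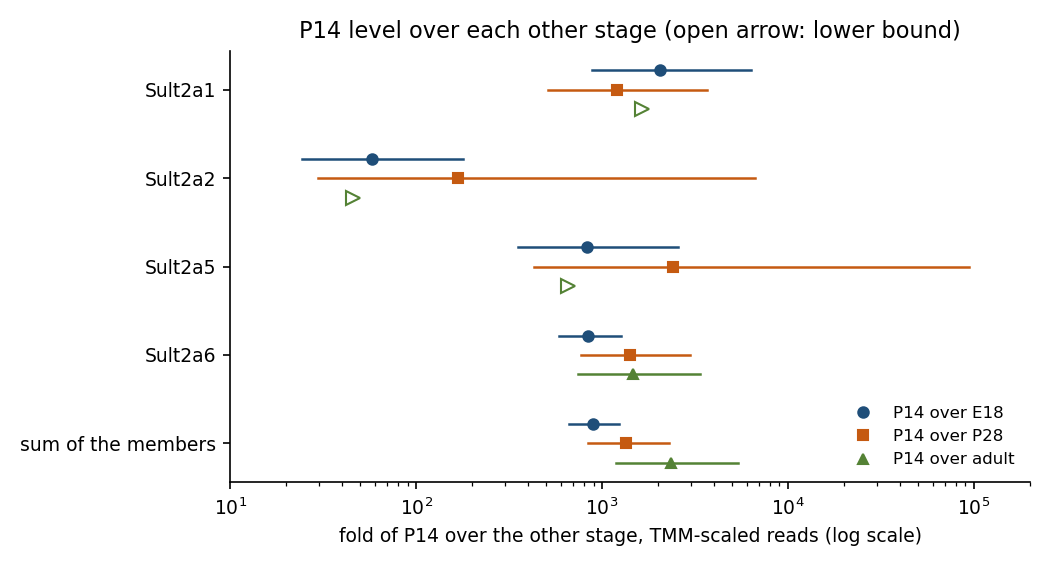
Fold of the P14 level over E18, P28 and adult for each member and for their summed reads, on a log axis. Points are ratios of TMM-scaled reads over 2 libraries a stage, bars are 95% counting intervals and open arrows are lower bounds against 0 adult reads; no point lies below 45.7, and the summed reads lie at 891, 1340 and 2340.

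Summed over the 4 members, 13843 and 13288 reads at P14 stood against 20 and 24 at E18, 8 and 9 at P28, and 3 and 5 in adult. Per 1000000 reads on genes this was 131 and 127 at P14, 0.23 and 0.302 at E18, 0.0847 and 0.108 at P28, and 0.044 and 0.0668 in adult. The values of the stages did not overlap on this scale, and their order was P14, E18, P28, adult. The last 3 rest on 24 reads or fewer a library, and their exact counting intervals did overlap. E18 replicate 1 (0.141 to 0.356) overlapped P28 replicate 2 (0.0494 to 0.205), although E18 replicate 2 (0.193 to 0.449) did not meet P28 replicate 1 (0.0366 to 0.167). The latter overlapped adult replicate 2 (0.0217 to 0.156). The order of E18, P28 and adult was thus not resolved by the counts of single libraries. The summed P14 level was 891 times that at E18 (663 to 1230), 1340 times that at P28 (835 to 2300) and 2340 times that in adult (1190 to 5410). The ratio to E18 depended on the scaling, since without TMM the log2 ratio was 8.93 in place of 9.8. E18 liver is a blood-forming organ, and the summed RPKM of 6 erythroid markers was 8100 and 10400 at E18 against 40.3 to 58.2 afterwards, while 6 hepatocyte markers summed to 34600 and 34400 at E18 and 97200 and 96200 at P14. In whole liver, fewer hepatocytes and less RNA per hepatocyte cannot be told apart. After P14 the hepatocyte markers summed to 69000 and 65400 RPKM at P28 and to 44600 and 38100 in adult, a sum carried by Alb (65100 and 64400 at P14, 25400 and 19700 in adult), while Fgb was at 2860 and 2670 at P14 and 3680 and 4380 in adult. SULT2A enzymes are also known from adrenal cortex. The summed RPKM of 5 adrenal markers was 2.46 and 2.49 at E18, 1.51 and 1.53 at P14, and 1.96 to 4.36 later, with Mc2r at 0 in both P14 libraries, Cyp11b1 at 0 and 0.015, and Cyp11a1 at 0.065 and 0.0458 RPKM at P14, 0.44 and 0.787 at E18, and at most 0.0276 later. The intestinal markers Cdx2, Alpi, Lct and Vil1 were at most 0.24 RPKM at P14, while Fabp2, the fifth of that list, was at 156 and 158 RPKM.

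The members share much sequence, which limits how reads can be assigned among them. Their annotated transcripts (961 to 1046 bases, 741 for Sult2a2) were 97.6% identical between Sult2a1 and Sult2a2, 96.0% between Sult2a2 and Sult2a5, and 94.6% between Sult2a1 and Sult2a5. Sult2a6 was more distant, at 87.9 to 89.5% to the other 3. Of all stretches of 100 bases, the length of a read, 34.6% of those in Sult2a2 occurred exactly in another gene (Sult2a1, Sult2a4 or Sult2a5), 16.6% of those in Sult2a5, 11.4% of those in Sult2a1 and 0 of 862 in Sult2a6. How reads that fit several genes were counted is not given in the sources used here, so the counts of Sult2a1, Sult2a2 and Sult2a5 are uncertain in their split, most of all the 101 and 98 reads of Sult2a2, whereas at this length no stretch of Sult2a6 is shared. Outside P14, Sult2a2 and Sult2a5 had equal read numbers in every library, and whether the same reads were counted for both was not tested. The folds of Sult2a2 and the summed reads carry this uncertainty.

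The change of the members altered the composition of the Sult2a family. They made up 52.0 and 52.6% of the RPKM of all 8 Sult2a genes at P14, against 5.89 and 9.03% at E18 and 0.01 to 0.0362% at P28 and in adult. The other large part was Sult2a8, listed under the older symbol 2810007J24Rik and known to act on bile acids in mouse liver. It held 45.6 and 45.3% of the family's RPKM at P14, 93.2 and 91.0% at E18, and 99.7 to 99.8% later. Unlike the members, its level rose at every step, from 3.56 and 3.01 RPKM at E18 to 109 and 104 at P14, then 261 and 290 at P28, and finally 418 and 438 in adult liver. Its P14 level was higher than at E18 by 5.88±0.14 (s.e.) on the log2 scale and different from adult by -2.02±0.11 (adjusted p = 5.7e-09 and 1.6e-06, edgeR's quasi-likelihood test with Benjamini-Hochberg adjustment). The difference from P28, -1.4±0.11 on the log2 scale, did not reach the 3-fold limit.

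**Figure D3:**
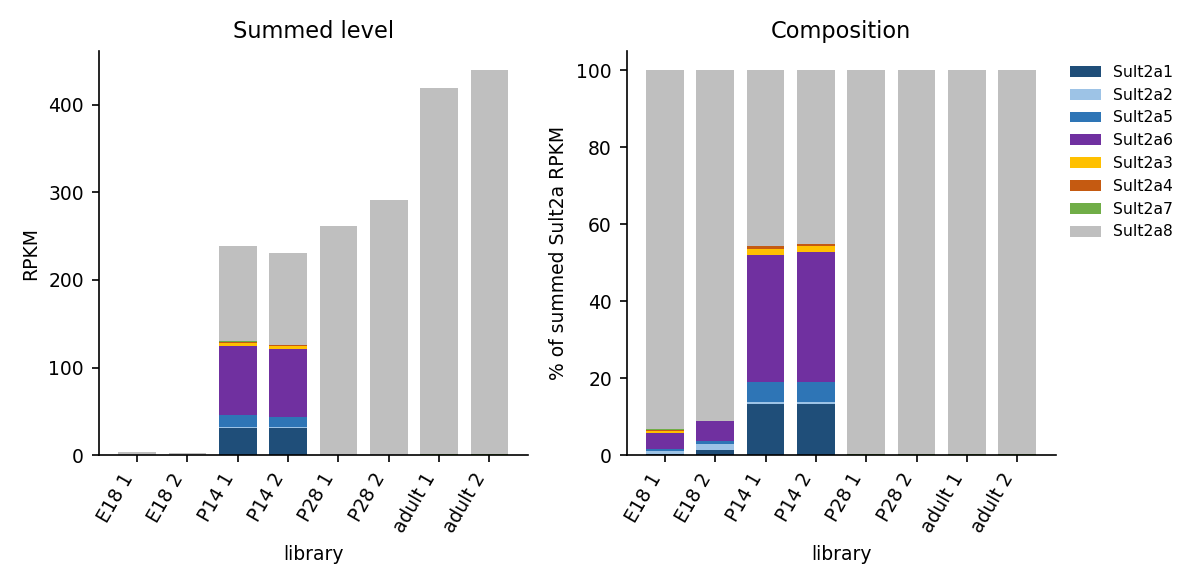
Summed RPKM of the 8 Sult2a genes in each library (left, bars start at 0) and the share of each gene in percent (right), with Sult2a8 drawn for the symbol 2810007J24Rik. The 4 members fill 52.0 and 52.6% of the P14 bars, and Sult2a8 fills at least 91.0% of all other bars.

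Of the remaining 3 Sult2a genes, Sult2a3 and Sult2a4 had the time course of the members at lower levels. Sult2a3 had 376 and 332 reads at P14 and 0 to 3 in each of the other 6 libraries, and Sult2a4 had 160 and 133 at P14 and 0 or 1 elsewhere. Their P14 levels were 3.89 and 3.49 RPKM and 1.47 and 1.24 RPKM. Sult2a3 thus lay between Sult2a5 and Sult2a2, while Sult2a4 was close to Sult2a2 (1.21 and 1.19 RPKM). Of the 100-base stretches of Sult2a4, 5.76% occurred exactly in another gene, Sult2a2 and Sult2a5 among them, so its count is uncertain in its split too. Sult2a7 differed: its 24 and 10 reads at P14 were above the 1 and 0 at E18 but below the 50 and 46 at P28 and the 73 and 90 in adult. It was called lower (adjusted p below 0.1 and over 3-fold) at P14 than at P28 (-1.75±0.41 on the log2 scale) and than in adult (-2.79±0.4, adjusted p = 0.0075 and 0.00037, edgeR's quasi-likelihood test with Benjamini-Hochberg adjustment), and the call against P28 was lost without P14 replicate 2. In the same fit, Sult2a3 and Sult2a4 were called higher at P14 than at each of the other 3 stages, as were 116 of all 17081 genes tested (0.679%). Sult2a3 and Sult2a4 passed the filter on low counts through P14 alone, so their calls are a description and not a test of the pattern. The 116 hold the members, which were chosen for this pattern, so that nothing is read from their place among them.

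Other genes had a similar course over the libraries. Among 13228 genes that reached a stage mean of 1 RPKM, the 10 with the highest Pearson correlation to the members' mean log2(RPKM + 0.1) over the 8 libraries were Sult2a4 (0.9966), Inhbb (0.9925), Sult2a3 (0.9923), Klf2 (0.9862), Bace2 (0.985), Stxbp6 (0.9848), Col4a3 (0.9816), Sidt1 (0.9815), Rufy4 (0.9797) and Copz2 (0.9787). Inhbb, which encodes the beta B subunit of activins and inhibins, was at 6.61 and 11.9 RPKM at P14 and at 0.13 to 0.299 RPKM elsewhere. Klf2, a zinc-finger transcription factor prominent in endothelium, was at 11.2 and 10.1 RPKM at P14 and at 3.43 to 4.66 RPKM elsewhere, and Copz2, a coatomer subunit, at 27.4 and 28.4 against 16.0 to 18.3 RPKM. Sult2a4, Sult2a3, Inhbb and Klf2 were among the 5 genes nearest to every single member. In all, 38 genes had a correlation of at least 0.95, which with 8 libraries describes a level set apart at P14 and not the size of the change. The choice of genes depended on the scale, since 6 of the 10 were kept with log2(RPKM + 1), 3 with TMM-scaled CPM, 2 among genes above 10 RPKM and 0 by Spearman's rho.

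The members' reaction depends on sulfate uptake and on PAPS, and its genes were examined beside the members. Papss2, a PAPS synthase gene, was highest at P14 like the members, but unlike them it stayed above its E18 level afterwards. It was at 77.7 and 84.1 RPKM at P14 against 5.43 and 4.71 at E18, 44.1 and 37.2 at P28, and 47.2 and 38.1 in adult. It rose from E18 by 4.85±0.17 on the log2 scale (adjusted p = 2.8e-08, edgeR's quasi-likelihood test with Benjamini-Hochberg adjustment), and its P14 level differed by 0.96±0.14 from P28 and by 0.9±0.14 from adult, within the 3-fold limit. Of the 9 tested genes of this list, 3 were called higher at P14 than at E18 and 1 lower, where 13.8% of all genes were called higher and 15.4% lower. The others that rose were Slc26a1, a sulfate exchanger of the hepatocyte membrane, by 2.39±0.1, and Slc13a4, a sodium-sulfate cotransporter, by 4.63±0.3, while the sulfate transporter gene Slc26a2 fell by 2.13±0.22, all on the log2 scale. The call of Slc26a1 was lost when libraries were scaled by size alone. Against P28 and adult, edgeR and DESeq2 called 0 genes of the list in either direction, where edgeR called 5.98% of all genes higher and 3.61% lower at P14 than at P28, and 11.1% and 4.35% against adult, so that 0 of 9 is near the share of all genes. At an unadjusted p below 0.05, edgeR had 1 higher and 4 lower against P28 and 2 higher and 3 lower against adult. The log2 differences of Papss1, the other PAPS synthase, Slc35b2 and Slc35b3, which carry PAPS into the Golgi, and Bpnt1 and Impad1, phosphatases of the by-product of sulfation, were between -0.72 and 0.2 there. Slc13a1 was too low to be tested.

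**Figure D4:**
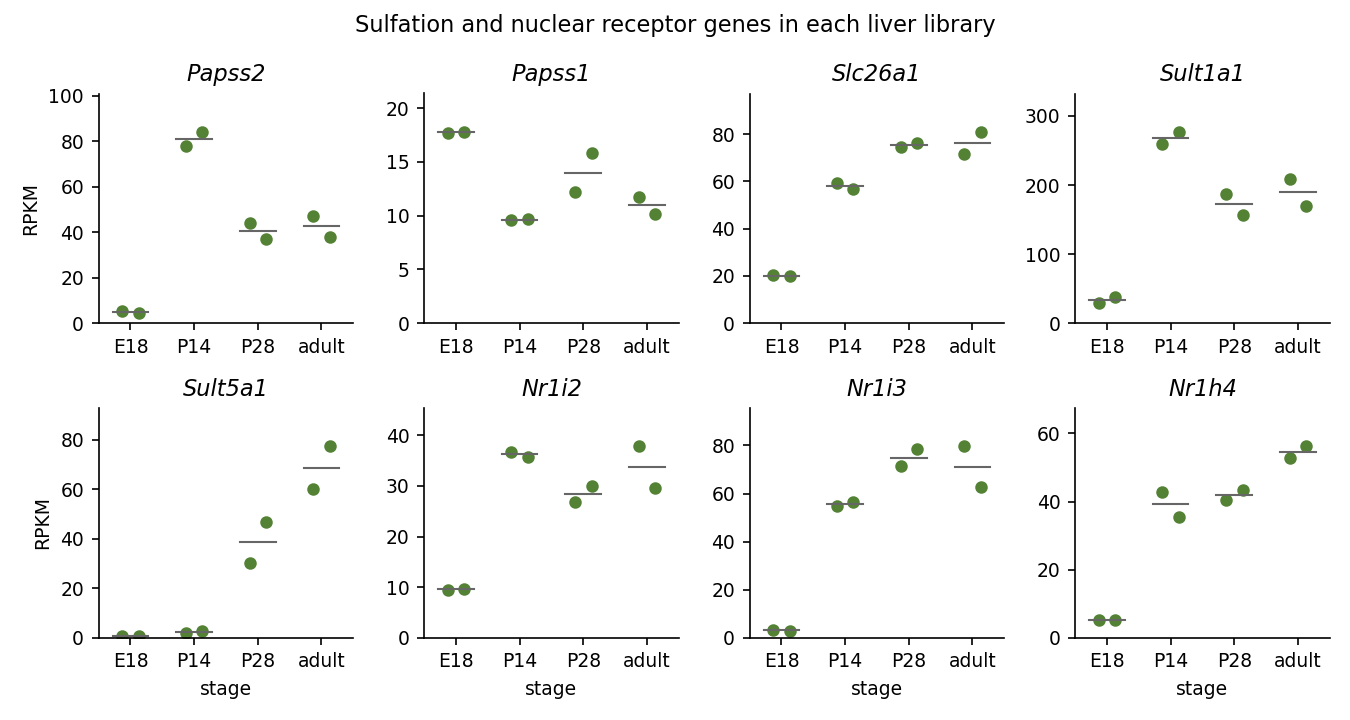
RPKM of 3 genes of sulfate and PAPS supply, 2 other sulfotransferases and the nuclear receptors PXR (Nr1i2), CAR (Nr1i3) and FXR (Nr1h4) in each library, on linear axes that start at 0. Points are libraries and lines are means of 2; Sult5a1 is high at P28 and in adult, and the means of the other 7 genes differ by less than 3-fold between P14 and the later stages.

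Most sulfotransferases of other subfamilies were not called between P14 and the later stages. Of 10 tested genes, 7 were called higher at P14 than at E18 and 1 lower. Against P28 the count was 0 higher and 1 lower, and against adult 2 higher and 2 lower, counts that are read beside the same shares of all genes. Of the 2 higher than in adult, Sult6b1, with 28 reads over both P14 libraries and 3 in adult, lost its call without P14 replicate 1 or adult replicate 1. The count of 0 against P28 was the same by DESeq2, 2 were higher at an unadjusted p below 0.05, and without P14 replicate 2 or either P28 library it was 1. Sult1a1, which sulfates simple phenols and was the highest of them, was at 260 and 277 RPKM at P14, then 187 and 157 at P28, and 209 and 170 in adult. Sult5a1 was the gene lower than at P28, at a log2 difference of -4.05±0.25, with 1.97 and 2.8 RPKM at P14 and 30.4 and 47 at P28. Of 9 tested genes of sulfatases or of the maturation of sulfatases and other lysosomal enzymes, 0 were called against E18 (13.8% of all genes higher and 15.4% lower). In edgeR, 6 were higher and 1 lower at an unadjusted p below 0.05, and DESeq2 called 0. At P14, 1 was lower than at P28 and than in adult (3.61% and 4.35% of all genes). It was Arsa (arylsulfatase A), at 2.85 and 2.8 RPKM against 11 and 12.1 at P28. With 9 genes, counts of 0 and 1 are not read as a result about them. Sts, the steroid sulfatase gene, was not among the gene symbols counted.

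The RNA of the receptors known to act on Sult2a promoters was examined, which does not measure their activity. Nr1i2 (PXR) was at 36.7 and 35.7 RPKM at P14, then 26.8 and 30 at P28, and 37.8 and 29.6 in adult, Nr1i3 (CAR) at 54.9 and 56.6, then 71.3 and 78.4, then 79.6 and 62.6, and Nr1h4 (FXR) at 42.9 and 35.4, then 40.5 and 43.3, then 52.9 and 56.2. At E18, Nr1i2 was at 9.52 and 9.68 RPKM, Nr1i3 at 3.38 and 2.89, and Nr1h4 at 5.22 and 5.22. All 3 were called higher at P14 than at E18, and none of them was called against P28 or adult. Whether these receptors bear on the course of the members was not tested. Of the 23 genes on the list of regulators, 15 were called higher and 1 lower than at E18 (13.8% and 15.4% of all genes). With libraries scaled by size alone, the count higher than at E18 was 11. Against P28, 0 were higher (0 by DESeq2, 4 at an unadjusted p below 0.05) and 1 lower (5.98% and 3.61% of all genes). Against adult, 1 was higher and 3 lower (11.1% and 4.35%). The gene lower than at E18 and higher than in adult was Vdr, the vitamin D receptor, with 33 reads over both P14 libraries, and the first call was lost without P14 replicate 1 and the second without P14 replicate 2 or adult replicate 1. Without P14 replicate 1 the count higher than at P28 was 1, and without P28 replicate 2 the count lower was 2. Cebpa, a hepatocyte transcription factor and the highest of the list, was at 141 and 134 RPKM at P14.

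Of 19 tested target genes of PXR and CAR, 17 were higher at P14 than at E18 and 0 lower (13.8% and 15.4% of all genes). The count of 0 was the same by DESeq2 and at an unadjusted p below 0.05. Against P28, 3 were higher and 6 lower (5.98% and 3.61% of all genes), and against adult 5 were higher and 7 lower (11.1% and 4.35%). The cytochrome P450 genes Cyp2b13 (7.38 and 7.6 RPKM at P14, 0.495 and 0.0594 at P28, 0.0144 and 0.013 in adult) and Cyp2b9 (44.7 and 46.9, then 10.8 and 2, then 0.411 and 0.026) shared the peak, and Cyp2b9 differed more between the P28 duplicates than the members did. Cyp2c54, Aldh1a1 and Cyp2c29 were lower at P14 than at P28, with log2 differences of -5.83±0.3, -3.95±0.21 and -2.85±0.23.

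Bile acids and hydroxysteroids, the members' substrates, are made and carried by the genes of 3 further lists. Of 17 genes of bile acid synthesis, 14 were called higher than at E18 and 0 lower (13.8% and 15.4% of all genes). The count of 0 was the same by DESeq2 and at an unadjusted p below 0.05. Against P28, 1 was higher and 5 lower (5.98% and 3.61% of all genes). Against adult, 1 was higher (2 without adult replicate 1) and 5 lower (11.1% and 4.35%). Cyp7a1, the rate-limiting enzyme of bile acid synthesis, was at 23.8 and 21.4 RPKM at P14 and 9.23 and 5.35 at P28, a log2 difference of 1.59±0.28 whose call was lost in DESeq2, with median-ratio scaling, with the 2 stages fitted alone, without P14 replicate 1 and without P28 replicate 2. Cyp7b1, the oxysterol hydroxylase of the alternative route, and Baat, which conjugates bile acids to taurine, were lower at P14 than at P28, with log2 differences of -5.93±0.39 and -2.41±0.13, and Cyp2c70, which makes muricholic acids, was the highest of the list at 828 and 623 RPKM. Of 13 bile acid transport genes, 7 were higher and 2 lower than at E18, 2 higher and 1 lower than at P28, and 2 higher and 3 lower than in adult, beside the same shares. Slco1a4, an organic anion transporter of the hepatocyte, was at 62.5 and 55.1 RPKM at P14 and 9.17 and 7.41 at P28, and Ostb, a subunit of the basolateral bile acid exporter, at 24.8 and 26.7 and then 7.15 and 6.21. Osta, the gene of the other subunit, was at 0 and 0.00584 RPKM at P14 and was called lower than at E18 (1.43 and 0.797 RPKM). The level of Ostb alone thus does not describe the exporter. Slco1a1 was lower at P14 than at P28 at a log2 difference of -3.72±0.19, and Slco1b2 was the highest of the list at 212 and 182 RPKM.

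Of 22 tested steroid enzymes, 11 were called higher and 2 lower than at E18 (13.8% and 15.4% of all genes), 2 higher and 5 lower than at P28 (5.98% and 3.61%), and 1 higher and 5 lower than in adult (11.1% and 4.35%). Hsd3b1, a 3-beta-hydroxysteroid dehydrogenase, was at 8.49 and 8.74 RPKM at P14, then 0.232 and 0.163 at P28, and 0.00731 and 0.0264 in adult, which is a loss after P14 as in the members, but at E18 it was already at 9.62 and 8.46. Cyp11a1, the cholesterol side-chain cleavage enzyme, was the other gene higher than at P28, at 0.065 and 0.0458 against 0 and 0.0189 RPKM, and its call was lost without P14 replicate 1 or P28 replicate 1. Hsd3b5 and Hsd3b2 were lower at P14 than at P28, with log2 differences of -8.31±0.33 and -3.58±0.16, and Akr1c6, a hydroxysteroid dehydrogenase, was the highest of the list at 568 and 562 RPKM. Of the 20 glucuronosyltransferases, the other large family of hepatic conjugating enzymes, 19 were higher than at E18, and 8 were lower and 0 higher at P14 than at P28 and than in adult, beside the same shares (0 higher by DESeq2 and at an unadjusted p below 0.05). Ugt3a1 and Ugt2b38 were lower than at P28 (log2 differences -2.86±0.19 and -2.63±0.33), and Ugt2b1 rose to 69 and 62.2 RPKM at P14 and to 585 and 654 in adult. The Ugt1a genes share exons and had nearly equal values, so that they do not count as separate genes. The same holds for the values of Ugt2a1 and Ugt2a2, both among the 8 lower genes, with 12 reads each over both P14 libraries and 36 and 37 at P28.

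The sex of the animals is known to bear on Sult2a levels, and the libraries differed in sex-linked RNA. Xist, expressed from the inactive X chromosome, was at 0.0248 RPKM in P14 replicate 1 and 25.6 in P14 replicate 2, at 64.0 and 6.75 at E18, and at 0.0293 to 0.0425 in the P28 and adult libraries. The summed RPKM of 4 Y-linked genes was 32.7 and 3.17 at P14, 0.00204 and 40.2 at E18, and 36.5 to 44.6 at P28 and in adult. Both kinds of RNA were thus present in P14 replicate 2 and E18 replicate 2, and P14 replicate 1 had the pattern of the P28 and adult libraries. The members' summed level was 124 RPKM in P14 replicate 1 and 121 RPKM in P14 replicate 2. With P14 replicate 1 as the only P14 library, the log2 ratio of the summed members was 10.39 over P28 and 11.2 over adult, against 10.38 and 11.19 with both. At E18 the members were near 0 in the library with Xist alone (20 reads) and in the library with both (24 reads).

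Genes known to be sex-biased in adult liver moved with stage beside the members. The summed RPKM of 12 female-biased genes, which include Cyp2b9 and Cyp2b13, was 129 and 114 at P14, 6.63 and 4.56 at E18, 109 and 27.5 at P28, and 2.48 and 1.36 in adult. That of 10 male-biased genes, which include Cyp7b1 and Hsd3b5, was 75.9 and 70.1 at P14 and rose to 487 and 767 at P28 and 1260 and 1560 in adult. The female-biased sum was thus high in P28 replicate 1, where the members had 8 reads, and lower in P28 replicate 2, where they had 9. All P28 and adult libraries carried Y-linked RNA with Xist near 0, so that the members' level in livers without Y-linked RNA after P14 was not measured here, and what part sex has in the stage difference was not tested.

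**Figure D5:**
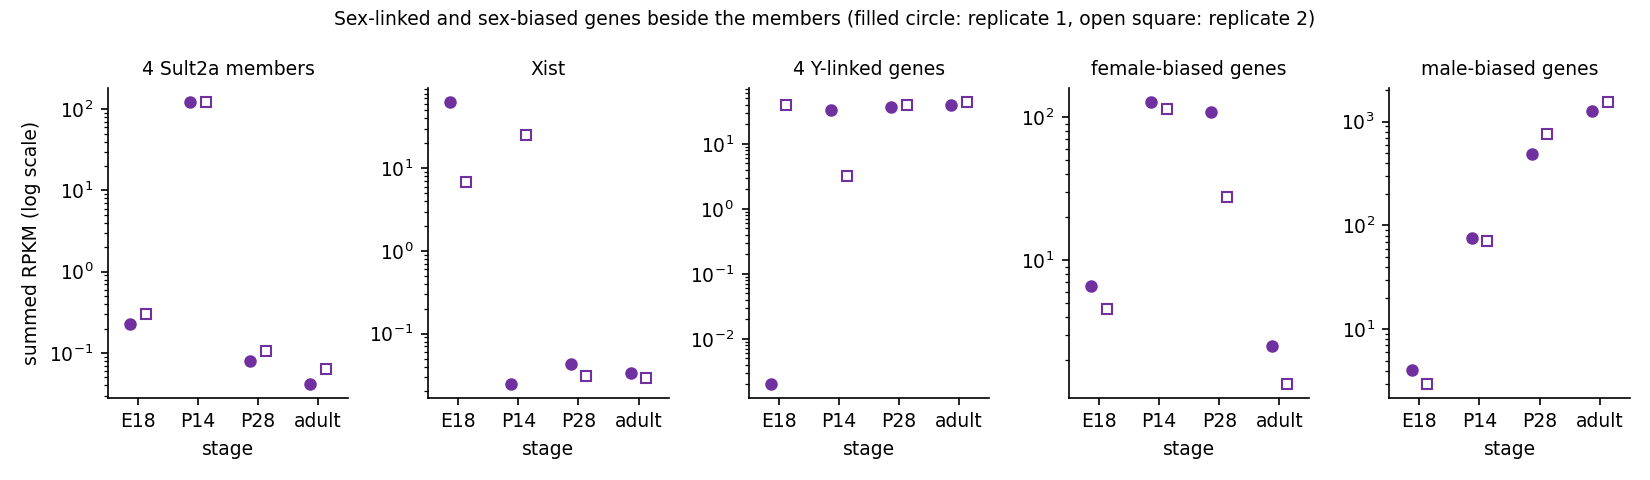
Summed RPKM of the 4 members, of Xist, of 4 Y-linked genes and of the female-biased and male-biased lists in each library, on log axes that differ between panels. Filled circles are replicate 1 and open squares replicate 2; the members lie at 124 and 121 RPKM in the P14 libraries, which differ in Xist (0.0248 and 25.6 RPKM).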

How the data were processed

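The 8 libraries were grouped by the stage in their labels. The authors aligned 100 bp read pairs and deposited raw read counts for 22059 gene symbols, without filter, and RPKM that they computed by dividing the count by transcript length in kilobases and by 1000000 mapped reads. The build was mm9 per the submitters' processing notes, and the aligner and counter are not given in the sources used here. The labels name Trizol and the Methods a column kit for RNA isolation. Recovered from count and RPKM, mapped totals were 73844259 to 112713530 reads, of which 91.4 to 94.1% were on genes.

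Counts were fitted with edgeR 4.0.16 (filterByExpr, which kept 17081 genes and all 4 members, the latter through P14 alone, TMM, glmQLFit, 1 coefficient per stage over all 8 libraries). A gene was called at a Benjamini-Hochberg rate below 0.1 and over 3-fold. The paper calls the duplicates biological, and p-values measure the spread between these samples. The 3 comparisons share the P14 libraries. Scripts were tested on simulated data. DESeq2 1.42.0, other scalings, filters and samples left out were tried. Other software was R 4.3.3, Python 3.11.15, pandas 2.3.3, numpy 2.4.6, scipy 1.17.1, matplotlib 3.10.9 and biopython 1.88. The members and gene lists were chosen with earlier results of these data known.

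Named genes were all Sult2a and sulfate and PAPS supply genes, and in every other list up to 2 called genes a direction with the largest change between P14 and P28 and the gene of highest mean RPKM. Some genes that this rule names are not reported here. Folds of members are ratios of pooled TMM-scaled reads with exact 95% intervals, and a bound of 3 reads over the group where it had 0. Transcripts and gene positions came from GENCODE (GRCm38), and promoters from RefSeq (GRCm38.p6). Sult2a1 and Sult2a2 were not matched in the promoter table.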

Additional observations from a re-analysis of the deposited data

How the results depend on the processing

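All 180 alternative log2 ratios of members and their sum (other scales, 1 CPM added, libraries left out) were above 0, the lowest 1.04 with 1 CPM added and 4.42 otherwise. The summed members' log2 ratio over E18, 9.8, was 8.93 by library size alone, 8.94 on deposited RPKM and 7.01 with 1 CPM added, which also gave 7.08 over P28 (10.38) and 7.15 over adult (11.19), and leaving out a library gave 9.58 to 10.02, 10.22 to 10.55 and 10.96 to 11.51. Genes called were 4989 against E18, 1638 against P28 and 2641 against adult. With at least 10 counts in every sample, which leaves fewer genes, they were 3128, 795 and 1557, and list genes called fell from 39 to 19 against P28 and from 49 to 25 against adult. With a 2-fold limit they were 7720, 3319 and 4753. By library size alone the median log2 change of all genes from E18 was -0.9 in place of -0.03, with 1266 genes higher and 5095 lower in place of 2353 and 2636. List genes called against E18 were then 91 in place of 103. The calls of Slc26a1, Sult5a1, Cyp7b1 and Ugt3a1 against E18 were among those lost, as were those of Hnf4a and Cebpb. With the replicate block the counts were 4998, 1615 and 2620. Samples of 1 number did not deviate together (r -0.43 to 0.186 over 6 pairs of stages), so the numbers were not taken as pairs. Slco1b2, called lower than in adult, lost its call in 6 settings, without adult replicate 2 and without P14 replicate 2 among them. Of 960 list count alternatives, 897 were within 1.5 times. Of the 10 genes most like the members, 6 were kept with log2(RPKM + 1), 3 with TMM-scaled CPM, 0 by Spearman's rho and 2 above 10 RPKM. A floor of 3 reads a library is 0.0254 to 0.0548 RPKM for Sult2a1, Sult2a2 and Sult2a5, and values below it are a few reads.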

Other observations

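Some of the sex-biased genes separated the P28 duplicates, in which the members were equally low. A1bg, a plasma protein gene higher in female liver, was at 83.7 RPKM in P28 replicate 1 and 19.4 in replicate 2, against 3.48 and 3.04 at P14. Elovl3, a fatty acid elongase higher in male liver, went the other way, at 74.6 and 145 RPKM. These are values of single libraries and were not tested.

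Of 6 pancreas markers, Cpa1 was at 53.9 and 107 RPKM and Ctrb1 at 119 and 322 RPKM at E18, and at most 0.0286 and 0.397 RPKM afterwards. Cel and Prss2 were also higher at E18 at lower levels, Pnlip was at most 0.0398 RPKM, and Cela1 went the other way, at 13.3 and 18.2 RPKM at E18 and 74.5 to 87.1 at P28 and in adult.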
